A study of Mus musculus with 4 samples.

Results

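The genes described here carry out or regulate phagocytosis of photoreceptor outer segments by the retinal pigment epithelium (RPE), the cell layer behind the retina. They are 10 genes selected by name from the 22863 genes in the RNA-seq table of mouse eyes: the receptor tyrosine kinases Mertk, Tyro3 and Axl, their ligands Gas6 and Pros1, the integrin subunits Itgav and Itgb5 and the integrin ligand Mfge8, the scavenger receptor Cd36, and the myosin Myo7a. All 10 were listed once in the table and all 10 passed the filter on low values (10 or more in 2 or more samples).

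Rods shed the tips of their outer segments every day, and each RPE cell engulfs and digests those of the rods that face it. Phosphatidylserine exposed on the shed tips is bridged by MFG-E8 to the alpha-v beta-5 integrin, which binds the particle and sets the daily timing, and by Gas6 and Protein S to MERTK, which triggers ingestion. CD36 affects the rate of ingestion, and myosin VIIa moves phagosomes away from the apical surface. Uptake peaks shortly after light onset and follows a circadian clock, so both the clock and light history are of interest for these genes.

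The study asked how the circadian clock and light affect pigment regeneration in rods, and RNA-seq was run to look for transcripts of the visual cycle that were lower after light exposure. Mice were C3H/f+/+ (strain C3H in the labels), a strain that makes melatonin and, unlike the original C3H, lacks the Pde6b mutation that degenerates the retina. Subjective day mice had been kept in darkness for 18 h and were taken at circadian time (CT) 6, noon. A longer time in darkness is also given for this condition elsewhere in the study's text. Objective day mice had seen light in the morning, were then dark-adapted for 1 h and were taken at zeitgeber time (ZT) 6, also noon. There were 2 biological replicates for each condition, each pooling the 4 eyes of a female and a male. The mice were age-matched, with the age of these samples not given in the sources used here. The labels give no transgene or deletion, and all 4 samples were dissected in the dark and sequenced in 1 lane.

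Each sample contained retina, RPE, choroid and posterior sclera, without the lens and anterior eye, so the genes were measured in the whole mixture. There, fewer cells of a type and less RNA per cell cannot be told apart. Both conditions were sampled at noon, hours after the usual peak of phagocytosis, and neither sampled the peak itself. All values below are adjusted counts, gene counts that the authors had scaled to a common library size, and totals of the samples ran from 33278417 to 35236783. Sequencing depth is not known from such totals, and each condition had only 2 samples.

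The whole table sets the background for the 10 genes. In limma on log2(value + 1), 17784 genes were tested with Benjamini-Hochberg adjustment, and 1.06% of them were higher and 7.45% were lower in objective day at an adjusted p under 0.05. This split was not stable, with 0.61% higher and 0.661% lower once the trend of values on transcript GC content was removed (17536 genes), and 0 genes called with a variance prior that ignores the mean, where 3586 had an unadjusted p under 0.05. The difference between conditions moved with the GC content of transcripts (Spearman correlation across genes of 0.58, as a description), with a median log2 fold change of -0.42 among the 10% of genes poorest in GC and 0.14 among the 10% richest in GC. GC content is therefore given for the 10 genes and for the pathway genes named. RPE markers were present, with 8 of 9 passing the filter on low values; Best1 lay below it. Their summed level was 90000 and 81560 in objective day, against 91160 and 76000 in subjective day. Of the 8, 4 had log2 fold changes above 0 and 4 below 0, with a median of 0.0216. The objective day pair lay entirely above the subjective day pair in 2 and entirely below it in 2. None was called higher and 2 were called lower, Rpe65, the visual cycle isomerase (log2 fold change -0.52, limma adjusted p = 0.0286), and Ermn (-0.46, adjusted p = 0.0405). With the GC trend removed neither was called, with log2 fold changes of -0.25 for Rpe65 (GC content 42.2%) and 0.11 for Ermn (38%), the opposite sign. The study also reported lower Rpe65 in objective day by qRT-PCR in separate samples. Markers of the ocular surface, a tissue that dissection should remove, stood apart. Of 5 listed, 4 were tested and all 4 were lower, with sums of 2965 and 5430 in objective day, against 10370 and 10850 in subjective day. The part of the ocular surface markers, and of GC content, in the values of the phagocytosis genes was not tested unless a value is given.

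None of the 10 genes passed this threshold. In 6 of 10 genes (Tyro3, Gas6, Pros1, Itgb5, Mfge8 and Myo7a) the objective day pair of values was entirely above the subjective day pair, against 27.9% of all genes tested, and in 2 (Itgav and Cd36) both lay below, against 28.2%. At an unadjusted p under 0.05, 4 genes were higher in objective day (Gas6, Pros1, Itgb5 and Mfge8), against 9.51% of all genes, and 1 was lower (Cd36), against 15.9%. The median log2 fold change of the 10 was 0.15, and that of all genes tested was 0.0147. With the GC trend removed these medians were 0.0975 and 0.0193. The count of 0 was not stable. It was 1 with TMM scaling (Gas6 higher, as were 1.4% of all genes), with samples scaled to the RPE markers (Cd36 lower, as were 3.09%) and with the GC trend removed (Pros1 higher, as were 0.61%). Without subjective day 1, 5 of 10 were called, namely the same 4 higher, against 4.87% of all genes, and Cd36 lower, against 9.51%. Without objective day 1, Cd36 alone was called lower, as were 3.94% of all genes. With 2 samples against 2, the smallest p that an exact permutation test of a single gene allows is 0.333, so the limma p-values rest on variances pooled across genes.

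The promoters of the 5 genes with an unadjusted p under 0.05 are shown here, since these genes differed most between the conditions relative to their error. Each line is the 250 bases before the start of the gene in RefSeq on GRCm38.p6, read along the gene's strand, in lower case with the GC box in capitals (GGGCGG on either strand). The Gas6 window lies at chr8:13494536-13494785 on the minus strand, Pros1 at chr16:62854057-62854306 on the plus strand, Itgb5 at chr16:33829415-33829664 on the plus strand, Mfge8 at chr7:79149061-79149310 on the minus strand and Cd36 at chr5:17835897-17836146 on the minus strand. The Cd36 window lies inside the gene as GENCODE draws it, which has starts further upstream.
Gas6: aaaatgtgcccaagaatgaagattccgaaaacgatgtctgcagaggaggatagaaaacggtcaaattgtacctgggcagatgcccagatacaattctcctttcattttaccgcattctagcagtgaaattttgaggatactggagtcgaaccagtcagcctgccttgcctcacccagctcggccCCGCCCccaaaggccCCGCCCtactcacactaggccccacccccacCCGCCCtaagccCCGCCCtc
Pros1: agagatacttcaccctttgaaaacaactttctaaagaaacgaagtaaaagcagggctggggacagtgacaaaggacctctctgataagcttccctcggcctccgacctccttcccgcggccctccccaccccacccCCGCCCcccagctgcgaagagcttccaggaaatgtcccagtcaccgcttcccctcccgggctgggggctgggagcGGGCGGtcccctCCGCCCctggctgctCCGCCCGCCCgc
Itgb5: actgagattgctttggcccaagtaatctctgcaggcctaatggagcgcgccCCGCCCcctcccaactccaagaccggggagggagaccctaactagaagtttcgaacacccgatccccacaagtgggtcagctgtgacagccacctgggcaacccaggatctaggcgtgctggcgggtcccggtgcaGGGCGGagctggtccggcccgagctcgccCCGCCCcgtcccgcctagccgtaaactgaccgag
Mfge8: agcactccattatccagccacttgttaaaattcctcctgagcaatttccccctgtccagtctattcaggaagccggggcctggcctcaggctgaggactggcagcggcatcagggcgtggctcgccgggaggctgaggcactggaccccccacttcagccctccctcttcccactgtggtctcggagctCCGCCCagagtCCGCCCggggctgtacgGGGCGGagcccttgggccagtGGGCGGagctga
Cd36: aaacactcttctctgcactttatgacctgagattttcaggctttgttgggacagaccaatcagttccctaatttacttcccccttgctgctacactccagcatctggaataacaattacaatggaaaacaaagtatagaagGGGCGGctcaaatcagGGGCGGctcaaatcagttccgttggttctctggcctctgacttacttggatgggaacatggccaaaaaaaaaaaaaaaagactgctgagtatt

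The GC box occurred 4 times in the Gas6 window, 5 times in that of Pros1, 3 times in that of Itgb5, 4 times in that of Mfge8 and 2 times in that of Cd36. Of the 10 genes 9 had at least 1, the exception being Itgav, and 32.7% of the 32851 RefSeq promoters searched held 1. The GC content of the windows ran from 43.2% in Cd36 to 73.2% in Tyro3, and all except that of Cd36 were richer in GC than the median of 52.4% over all promoters. None of the 11 windows held an E-box (CACGTG, 6% of promoters), a CRE core (TGACG, 17.8%), an AP-1 site (TGANTCA, 6.7%) or an Egr site (GCGNGGGCG, 4.7%; its letters overlap those of the GC box). An M-box core (CATGTG, 12.3%) was found in 1 window, the second of the 2 starts listed for Myo7a, shown for this reason. It holds 2 copies, in capitals, and lies at chr7:98109249-98109498 on the minus strand.
Myo7a, second start: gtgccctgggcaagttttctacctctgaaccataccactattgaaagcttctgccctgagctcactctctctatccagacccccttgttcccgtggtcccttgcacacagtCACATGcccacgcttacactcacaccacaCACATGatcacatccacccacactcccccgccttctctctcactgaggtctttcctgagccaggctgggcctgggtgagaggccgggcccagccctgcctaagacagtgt

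These matches only describe the letters in the windows. Both strands were searched for each motif.

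Levels of the 10 genes differed widely when adjusted counts were divided by the exon length of the gene. Gas6 and Mfge8 stood first, with means over the 4 samples of 3019 and 2248 adjusted counts per kb. Itgb5 (637), Itgav (328), Axl (262), Cd36 (215) and Mertk (184) followed, and Pros1 (114), Myo7a (80.1) and Tyro3 (63.5) were lowest. The samples of Axl overlapped those of Cd36, and those of Cd36 overlapped those of Mertk, so these neighbours in the order did not differ beyond their spread. The 4 samples of every other neighbouring pair did not overlap. Dividing by the longest transcript in place of all exons put Mfge8 (4529) above Gas6 (3019) and left the rest of the order as it was.

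**Figure D1:**
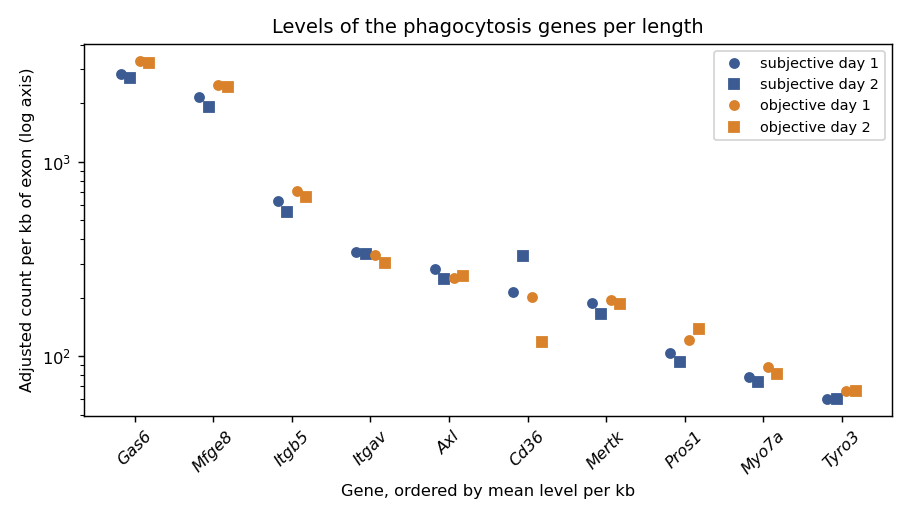
Adjusted count per kb of exon (log axis) for each of the 10 genes in the 4 samples, blue for subjective day, orange for objective day, circles for replicate 1 and squares for replicate 2. Levels run from a mean of 63.5 in Tyro3 to 3019 in Gas6, and the 4 samples of Cd36 are the most widely spread.

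Mertk, the receptor whose loss leaves RPE cells unable to ingest outer segments, lies on chromosome 2 (128698956 to 128802894, plus strand, GRCm38). Its adjusted count was 847 and 810 in objective day, against 817 and 716 in subjective day. The conditions overlapped, since subjective day 1 lay above objective day 2. The means were 828 ± 26.4 and 766 ± 71.2 (SD, n = 2), a log2 fold change of 0.11 for objective over subjective day (SE 0.088, 95% interval -0.09 to 0.32, limma adjusted p = 0.462). The interval leaves room for a difference of either sign, and the value was 0.02 without subjective day 2 and 0.21 without subjective day 1. At a GC content of 48.1%, the log2 fold change was 0.14 with the GC trend removed (adjusted p = 0.587).

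Tyro3, a related receptor that can act beside Mertk in the RPE, lies on the same chromosome (119797733 to 119818104, plus strand). It measured 412 and 413 in objective day, against 374 and 375 in subjective day. The samples of each condition nearly coincided and the conditions did not overlap. The log2 fold change was 0.14 (SE 0.0897, 95% interval -0.07 to 0.35, limma adjusted p = 0.377). Its error is large beside the samples because limma draws the variance of each gene toward that of genes of like level. At a GC content of 55.4%, it was 0.04 with the GC trend removed (adjusted p = 0.905).

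Axl, the receptor of the family best known from vessels, macrophages and other immune cells, lies on chromosome 7 (25757273 to 25788705, minus strand). Its values were 1278 and 1305 in objective day, against 1421 and 1264 in subjective day. The objective day samples fell between the subjective day samples. The log2 fold change was -0.05 (SE 0.077, 95% interval -0.23 to 0.13, limma adjusted p = 0.714). It was 0.03 without subjective day 1, so its sign rested on that sample, and -0.14 without subjective day 2. At a GC content of 54.2%, it was -0.145 with the GC trend removed (adjusted p = 0.463). Of 8 macrophage and microglia markers, 0 were called. Their sums were 2755 and 2744 in objective day, against 2994 and 2432 in subjective day. Subjective day 1 was highest and subjective day 2 lowest, as for Axl. The sums of the RPE, Mueller glia and fibroblast markers had the same highest and lowest samples, so this order was not particular to macrophages. The part of any of these markers in the values of Axl was not tested. The 2 macrophage and microglia markers with the smallest p were Itgam (log2 fold change -0.39, limma adjusted p = 0.175) and Aif1 (0.61, adjusted p = 0.182).

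Per kb of exon, Axl was the most abundant of the 3 receptors in every sample. It made up 49.2% and 50.6% of their summed level in objective day, against 53.2% and 52.7% in subjective day. Mertk made up 37.9% and 36.4% in objective day, against 35.5% and 34.7% in subjective day, and Tyro3 made up between 11.4% and 13% in the 4 samples. The Axl to Mertk ratio was 1.3 and 1.39 in objective day, against 1.5 and 1.52 in subjective day. This ratio did not overlap between conditions, but 2 samples against 2 allow no exact permutation p below 0.333. Since the tissue is mixed, the shares describe the whole posterior eye and not the RPE.

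Gas6, a vitamin K-dependent ligand of all 3 receptors, lies on chromosome 8 (13465374 to 13494490, minus strand). It measured 8441 and 8240 in objective day, against 7236 and 6852 in subjective day. Both objective day samples were above both subjective day samples, and the gap between conditions was wider than the gap within either. The means were 8340 ± 142 and 7044 ± 272 (SD, n = 2), 18.4% higher on the log2(value + 1) scale, with a log2 fold change of 0.24 (SE 0.062, 95% interval 0.10 to 0.39). Its limma adjusted p of 0.056 was the smallest of the 10, just above the threshold, and was 0.0445 with TMM scaling, within a range of 0.00809 to 0.517 over 15 alternatives. Its transcript had a GC content of 56.6%, and with the GC trend removed the log2 fold change was 0.14 (adjusted p = 0.396). Gas6 shares 34 exonic bases with Tmem255b on the opposite strand, and the strand setting of the counting is not given in the sources used here.

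Pros1, which encodes Protein S, the other ligand of this family in the RPE and an anticoagulant in plasma, lies on chromosome 16 (62854307 to 62929346, plus strand). It measured 497 and 564 in objective day, against 423 and 383 in subjective day. The conditions did not overlap. The means were 531 ± 47.5 and 403 ± 28.9 (SD, n = 2), 31.5% higher, with a log2 fold change of 0.40 (SE 0.104, 95% interval 0.15 to 0.64, limma adjusted p = 0.0618). Its GC content was 43.4%, below the median of 49.8% over tested genes. With the GC trend removed the log2 fold change was 0.60 (SE 0.108, adjusted p = 0.0488, in a range of 0.00263 to 0.329 over the alternatives). Pros1 was then the 1 member called, against 0.61% of 17536 genes called higher and 0.661% called lower in that fit.

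Both ligands thus had the same direction, and Gas6 exceeded Pros1 by a wide margin per kb in every sample. The Gas6 to Pros1 ratio was 27.2 and 23.4 in objective day, against 27.4 and 28.7 in subjective day. The ratio of Gas6 to Mertk was 17 and 17.3 in objective day, against 15.1 and 16.3 in subjective day. Of the 4 smooth muscle markers, genes of vessel walls, where Gas6 is also made, 0 were called. Their sums were 3022 and 2626 in objective day, against 2293 and 2220 in subjective day, also without overlap, and their median log2 fold change was 0.29. The 8 rod markers, of which 0 were called, were likewise higher without overlap, with a median log2 fold change of 0.188. These summed to 1401000 and 1262000 in objective day, against 1222000 and 1074000 in subjective day. The 5 blood markers, which come from red cells, had sums of 4301 and 4574 in objective day, against 3054 and 3161 in subjective day, higher without overlap. Of these, 3 hemoglobin genes were called higher, Hba-a1 (log2 fold change 0.67, limma adjusted p = 0.00573), Hbb-bs (0.37, adjusted p = 0.0115) and Hbb-bt (0.98, adjusted p = 0.0268), whose single values are uncertain since near-identical copies can share reads. With the GC trend removed Hba-a1 alone was called (0.56, adjusted p = 0.0336). The part of the smooth muscle, rod and blood markers in the values of Gas6 and Pros1 was not tested. The 7 endothelium markers had sums of 14840 and 14560 in objective day, against 15280 and 14990 in subjective day. These sums were lower without overlap, but 5 of the 7 had log2 fold changes above 0 and the median was 0.193, while Kdr, the most abundant, measured 10927 and 10653 in objective day, against 11869 and 11935 in subjective day. Of the 7, 1 was called higher, Cldn5, a tight junction protein (log2 fold change 0.52, limma adjusted p = 0.0207), which was 0.39 with the GC trend removed (adjusted p = 0.136).

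Itgav, the alpha-v subunit, which pairs with several beta subunits, lies on chromosome 2 (83724397 to 83806916, plus strand). Its values were 3553 and 3242 in objective day, against 3686 and 3604 in subjective day. Both objective day samples lay below both subjective day samples, by a margin smaller than the gap within objective day. The log2 fold change was -0.10 (SE 0.0665, 95% interval -0.26 to 0.05, limma adjusted p = 0.378). It was -0.04 without objective day 2 and -0.17 without objective day 1. Its GC content was 43.5%, and the log2 fold change turned to 0.09 with the GC trend removed (adjusted p = 0.666), so its direction was not stable. Itgav shares 634 exonic bases with Gm13684, a transcript on the opposite strand.

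Itgb5, the beta-5 subunit that defines the integrin of the apical RPE, lies on chromosome 16 (33829665 to 33949338, plus strand). It measured 2515 and 2348 in objective day, against 2229 and 1966 in subjective day, without overlap. The means were 2431 ± 118 and 2097 ± 186 (SD, n = 2), 16.1% higher, with a log2 fold change of 0.22 (SE 0.079, 95% interval 0.03 to 0.40, limma adjusted p = 0.144). The gap between objective day 2 and subjective day 1 was smaller than the gap within either condition. The log2 fold change was 0.12 without subjective day 2 and 0.31 without subjective day 1, where it was called (adjusted p = 0.0282, in a range of 0.0238 to 0.662 over the alternatives). With a GC content of 57%, its log2 fold change was 0.10 with the GC trend removed (adjusted p = 0.596).

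Itgav and Itgb5 differed in direction in the deposited values. Their ratio per kb was 0.467 and 0.457 in objective day, against 0.547 and 0.606 in subjective day. It did not overlap between conditions, again with no exact permutation p below 0.333 possible. With the GC trend removed both had log2 fold changes above 0, 0.09 for Itgav and 0.10 for Itgb5, so that their difference in direction was lost. Other partners of alpha-v were compared per kb. Itgb8, which with alpha-v activates TGF-beta, measured 311 and 285 adjusted counts per kb in objective day, against 474 and 469 in subjective day, below Itgb5 (708 and 661, then 627 and 553) in every sample. Itgb1 measured 515 and 494 per kb in objective day, against 629 and 594 in subjective day. It lay below Itgb5 in both objective day samples. In subjective day 1 it was nearly equal to Itgb5 (629 against 627), and in subjective day 2 it was higher (594 against 553). The exon lengths used were 4.08 kb for Itgb1 and 3.55 kb for Itgb5, and no other length was tried for this comparison. Itgb3 and Itgb6 stayed between 8.7 and 16.3 per kb in all samples.

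Mfge8, the bridge between phosphatidylserine and this integrin, lies on chromosome 7 (79133768 to 79149060, minus strand). It measured 11633 and 11352 in objective day, against 10172 and 9051 in subjective day. The conditions did not overlap, and the wider spread was within subjective day. The means were 11492 ± 199 and 9611 ± 793 (SD, n = 2), 19.8% higher, with a log2 fold change of 0.26 (SE 0.075, 95% interval 0.08 to 0.44, limma adjusted p = 0.0794). Its GC content was 56.2%, and with the GC trend removed the log2 fold change was 0.15 (adjusted p = 0.405). Mfge8 and Gas6, the most abundant of the 10 genes, kept nearly the same ratio per kb, 0.748 in both objective day samples and 0.763 and 0.717 in subjective day.

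**Figure D2:**
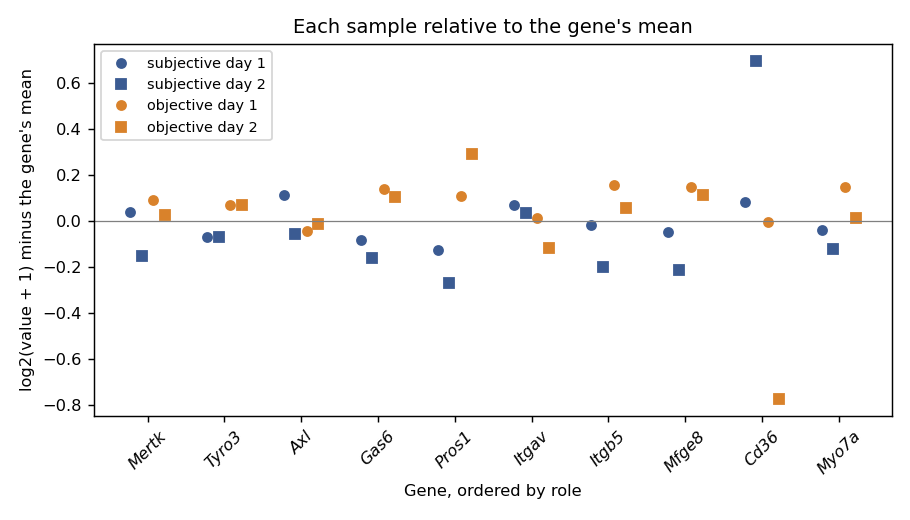
Difference of each sample from the gene's mean on the log2(value + 1) scale, for the 10 genes ordered by role, with blue for subjective day, orange for objective day, circles for replicate 1 and squares for replicate 2. Gas6, Pros1, Itgb5 and Mfge8 have both orange points above both blue points, whereas the points of Mertk and Axl overlap and those of Cd36 span the widest range.

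Cd36, a scavenger receptor for oxidised phospholipids that is also abundant in endothelium and fat, lies on chromosome 5 (17781690 to 17888801, minus strand). It measured 724 and 425 in objective day, against 768 and 1175 in subjective day. The samples numbered 1 lay close together, and the contrast came mainly from objective day 2, the lowest sample, and subjective day 2, the highest. The means were 574 ± 211 and 972 ± 288 (SD, n = 2), a log2 fold change of -0.78 (SE 0.267, 95% interval -1.40 to -0.15), with a limma adjusted p of 0.124. It was the largest difference of the 10 and had the largest error.

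The fold change of Cd36 moved by more than 1.5 times when some samples were left out. It was -0.39 without objective day 2 (adjusted p = 0.353) and -0.47 without subjective day 2 (adjusted p = 0.279), but -1.16 without objective day 1 (adjusted p = 0.00928) and -1.08 without subjective day 1 (adjusted p = 0.0148). Its GC content was 38.4%, the lowest of the 10, and with the GC trend removed the log2 fold change was -0.24 (adjusted p = 0.733). With samples scaled to the RPE markers it was -0.74 (adjusted p = 0.00283), so over 15 alternatives the adjusted p ran from 0.00283 to 0.733. The 4 adipocyte markers had sums of 1478 and 671 in objective day, against 735 and 1658 in subjective day, so that subjective day 2 was highest and objective day 2 lowest, as for Cd36. They overlapped between conditions, 0 of 4 were called (median log2 fold change -0.296), and their part in the values of Cd36 was not tested.

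Myo7a, the motor that carries phagosomes and melanosomes in the RPE, lies on chromosome 7 (98051060 to 98119524, minus strand). It measured 758 and 691 in objective day, against 667 and 628 in subjective day. The conditions did not overlap. The means were 725 ± 47.5 and 648 ± 27.3 (SD, n = 2), a log2 fold change of 0.16 (SE 0.0849, 95% interval -0.04 to 0.36, limma adjusted p = 0.285). It was 0.09 without objective day 1 and 0.23 without objective day 2. With a GC content of 56.3%, it had a log2 fold change of 0.06 when the GC trend was removed (adjusted p = 0.839).

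**Figure D3:**
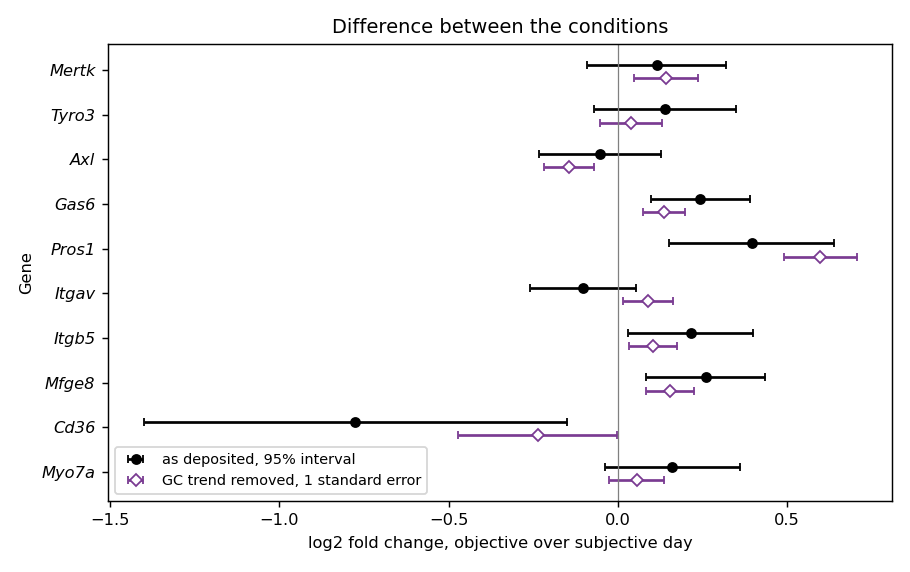
Log2 fold change of objective over subjective day for the 10 genes, with 95% intervals from limma on the deposited values (black) and, with the GC trend removed, 1 standard error (open diamonds). The black intervals of Gas6, Pros1, Itgb5 and Mfge8 lie above 0 and that of Cd36 below 0 before adjustment, and removing the trend brings Cd36 from -0.78 to -0.24 and Pros1 from 0.40 to 0.60.

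The 10 genes belong to a longer pathway, of which 54 further genes were measured, all of them above the filter. Among these, 1 was called higher in objective day and 11 lower, against 1.06% and 7.45% of all genes tested. Their median log2 fold change was 0.0977, against 0.0147 over all genes. Of the 11, 10 were poorer in GC than the median tested gene, as were 26 of the 54. With the GC trend removed, 0 of the 54 were called by limma, while 13 had an unadjusted p under 0.05, against 13.5% of all genes in that fit (smallest adjusted p of 0.0608, for Gpnmb).

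Recognition of the particle was represented by 12 other genes, with 0 higher, 3 lower and a median of -0.118. Itgb8 measured 3445 and 3156 in objective day, against 5246 and 5184 in subjective day (log2 fold change -0.66, limma adjusted p = 0.00559). Edil3, a secreted protein that like MFG-E8 binds phosphatidylserine and integrins, measured 3004 and 2812 in objective day, against 3617 and 3958 in subjective day (-0.38, adjusted p = 0.0195). Itgb1 had a log2 fold change of -0.28 (adjusted p = 0.0396). These 3 had GC contents of 40.4%, 38% and 44.8%. With the trend removed none of them passed the threshold, at -0.27 for Itgb8, -0.14 for Itgb1 and 0.19, the opposite sign, for Edil3. Itgb5 and Mfge8, which act at the same step, had log2 fold changes above 0 and were not called.

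Signalling to the cytoskeleton during engulfment was represented by 14 genes, with 0 higher, 3 lower and a median of -0.0157. Gulp1, an adaptor for engulfment receptors, measured 688 and 625 in objective day, against 964 and 1116 in subjective day (log2 fold change -0.66, limma adjusted p = 0.00906). It had the lowest GC content of the called genes, 36.4%, and a log2 fold change of 0.07 with the trend removed. Crk, an adaptor upstream of Rac activation, had a log2 fold change of -0.30 (adjusted p = 0.027) and Vav3, a guanine nucleotide exchange factor, one of -0.44 (adjusted p = 0.0299). Their GC contents were 43.8% and 45.9%, and with the trend removed the log2 fold changes were -0.12 and -0.35, neither past the threshold.

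Motors and cytoskeletal genes other than Myo7a numbered 8, with 0 higher, 2 lower and a median of 0.0977. Kif5b, the heavy chain of the kinesin that moves phagosomes along microtubules, measured 4804 and 4394 in objective day, against 5854 and 5826 in subjective day (log2 fold change -0.35, limma adjusted p = 0.0212). At a GC content of 41.1%, its log2 fold change was -0.01 with the trend removed. Anxa2, an actin- and membrane-binding annexin, had a log2 fold change of -0.43 (adjusted p = 0.0483) at a GC content of 51.7%, the 1 called gene above the median, and of -0.50 with the trend removed (adjusted p = 0.0671). Anxa2 is also a gene of surface epithelium, whose markers were lower in objective day, and their part in its value was not tested.

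Maturation and digestion of the phagosome were represented by 14 genes, with 1 higher, 1 lower and a median of 0.142. In 10 of the 14 the objective day pair lay entirely above the subjective day pair, and in 3 entirely below. Over the 54 pathway genes these counts were 21 and 20, and over all genes tested the shares were 27.9% and 28.2%. Gpnmb, a transmembrane glycoprotein of melanosomes and phagosomes, was the one called higher. It measured 4842 and 3763 in objective day, against 2797 and 2823 in subjective day, so that both objective day samples stood well above both others. Its log2 fold change was 0.60 (SE 0.110, limma adjusted p = 0.0189), and at a GC content of 49.6% the same 0.60 with the GC trend removed (adjusted p = 0.0608). Lamp2, a lysosomal membrane protein, measured 2511 and 2131 in objective day, against 3293 and 3466 in subjective day (-0.55, adjusted p = 0.0115), and at a GC content of 38.7% its log2 fold change was -0.03 with the trend removed.

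Exposure of phosphatidylserine, the signal that the receptors read, was represented by 6 genes, with 0 higher, 2 lower and a median of 0.13. Tmem30a, the subunit that flippases need to leave the endoplasmic reticulum, measured 3961 and 3578 in objective day, against 5989 and 6644 in subjective day (log2 fold change -0.74, limma adjusted p = 0.00559). Its GC content was 39.2%, and removing the trend gave a log2 fold change of -0.27, which did not pass the threshold.

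**Figure D4:**
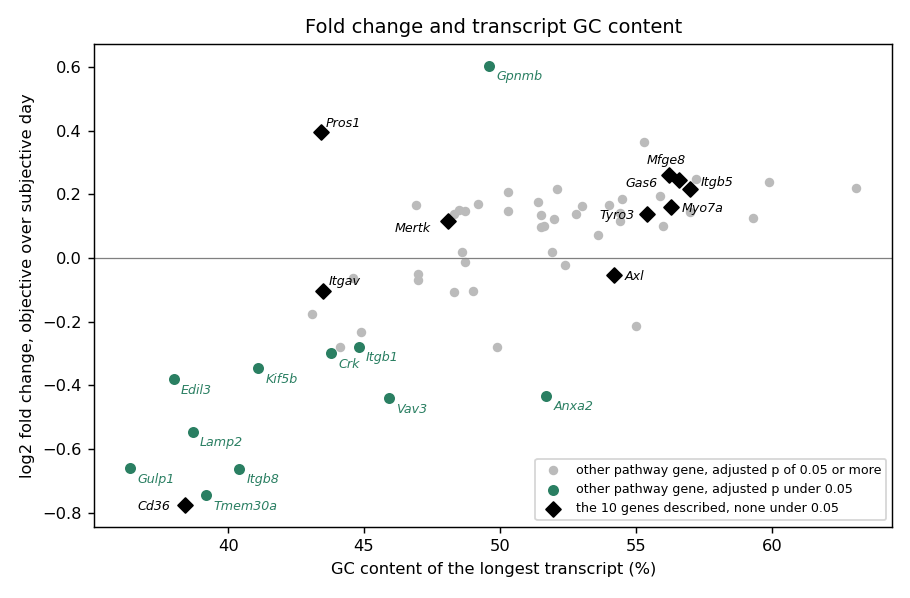
Log2 fold change of objective over subjective day against the GC content of the longest transcript (%), for the 10 genes (black diamonds) and other pathway genes (green where the adjusted p was under 0.05, grey otherwise). The called genes shown other than Gpnmb lie below 0, and all of these except Anxa2 have a GC content below 49.8%, where Cd36 also lies, whereas Pros1 stands above 0 at 43.4%.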

How the data were processed

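RNA-seq values of 4 mouse eye samples were analysed. According to the study's methods and the submitters' processing notes, reads were demultiplexed with CASAVA 1.8, aligned with TopHat2 2.0.9 and Bowtie2 2.1.0 to the mouse genome with Ensembl release 72, counted per gene with HTSeq and compared with edgeR. The deposited values are a signal per gene and sample, fractional gene counts adjusted by the authors to a common library size. Their form is that of counts equalised by edgeR, a step the sources used here do not name. Since they are not raw counts, no count test was run. Further columns that the authors deposited hold their own comparison (log2 fold change, mean log2 CPM, p-value and FDR) and were not used.

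Genes at 10 or more in 2 or more samples were compared with limma 3.58.1 (R 4.3.3) on log2(value + 1), with a trended variance prior and Benjamini-Hochberg adjustment at 0.05. A fold change on this scale understates that of low genes. The procedure was tested on simulated data. The samples of a condition did not hold identical values and were treated as separate samples. Positions, lengths and the GC content of the longest transcript were taken from GENCODE M21 (GRCm38, the assembly of the authors' release) and were known for 98.6% of tested genes. The GC trend was a local regression (span 0.3) in each sample, and removing it also removes any biology that follows GC content. Promoters were taken from RefSeq for all 10 genes.

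The 10 genes and the lists were chosen with earlier results of these data known. Named are all 10 genes and, in each list, at most 4 genes past the threshold or, where none passed, the 2 with the smallest p; marker genes are named only beside a result they touch, and 1 gene of a pathway list that is counted there is not reported by itself here. Marker lists whose calls are not given with the results had, as called higher and lower, 0 and 2 of 7 Mueller glia genes, 0 and 1 of 6 fibroblast genes, and 0 and 0 of 5 skeletal muscle genes. Alternatives covered the scaling, filter, pseudocount, variance prior, replicate block, GC trend and each sample left out.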

Additional observations from a re-analysis of the deposited data

How the results depend on the processing

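Over 15 alternatives, 133 of the 150 fold changes of the 10 genes kept their direction and their side of the threshold, 14 passed it and 3 changed sign. Gas6, Pros1, Itgb5, Mfge8, Mertk, Tyro3 and Myo7a stayed higher and Cd36 lower in objective day in every alternative. Itgav turned to 0.0901 with the GC trend removed, with and without the replicate block, and Axl, from -0.138 to 0.0316 without single samples, turned without subjective day 1. Of the 10 genes, 0 were called in the deposited values, 1 with TMM scaling (Gas6), 1 when samples were scaled to the RPE markers (Cd36), 1 with the GC trend removed (Pros1), and from 0 to 5 when single samples were left out. Leaving out a sample leaves a condition with 1, which is then assumed to vary like the others. Of all genes, 1514 were called (189 higher and 1325 lower), 618 when scaled to the RPE markers (69 and 549), 223 with the GC trend removed (107 and 116), from 664 to 2557 without single samples, and 0 with a limma variance prior that ignores the mean, where 3586 genes and 3 of the 10 had an unadjusted p under 0.05. The split of higher against lower calls is thus nearly even with the GC trend removed. The cause of these changes was not tested.

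The replicate numbers in the labels give no shared animal or day. Deviations of same-numbered samples correlated at 0.319, and 2 pairs cannot settle whether the numbers pair the samples. With the replicate block, 4 of the 10 genes were called (Gas6, Pros1, Itgb5 and Mfge8, all higher) and 3613 of all genes (1282 higher and 2331 lower). With the replicate block and the GC trend removed, 1 of the 10 was called (Pros1, limma adjusted p = 0.00263) and 1583 of all genes. Among pathway lists, the block alone called 1 higher and 4 lower of 12 recognition genes, and 1 and 5 of 14 signalling genes. For motors it was 0 and 2 of 8, for phagosome maturation 6 and 1 of 14, and for phosphatidylserine exposure 1 and 2 of 6. With the GC trend also removed these counts were, in the same order, 3 and 3, 1 and 1, 0 and 1, 3 and 0, and 0 and 2. Depth is not known from the adjusted values, so no counting error could be given, and 2 samples per condition limit every value.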
